A study of Mus musculus with 3 samples.

Results

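Xcl1 and 8 further genes known from T cells and natural killer (NK) cells were described in 3 arrays of mouse plasmacytoid dendritic cells, out of 19505 genes with a symbol. The 9 genes were taken by name: the chemokine gene Xcl1, the receptor genes Il2rb, Cd5, Cd3e and Cd3g, the cytotoxic genes Nkg7, Gzmb and Prf1, and the transcription factor gene Ets1. They were chosen by their symbols with the values of these arrays known, in particular their log2 differences from control, so all differences between arrays are descriptions and carry no test. The cells were grown from the bone marrow of wild-type male BALB/c mice aged 4 to 5 weeks, over 6 to 9 days in the presence of Flt3 ligand (100 ng/mL), then matured with CpG oligodeoxynucleotides and sorted. The 3 arrays hold control cells, cells that received Astragaloside IV (a triterpenoid saponin from Astragalus) and cells that received Oxymatrine (a quinolizidine alkaloid from Sophora). Each compound was present for 12 h and was followed by the chemokine CCL21 for 1 h. The doses are not stated in the labels, nor whether control cells received CCL21 or a vehicle, nor how many mice gave each culture. The study asked how these compounds inhibit migration of plasmacytoid dendritic cells. With 1 array per group there were no replicates, and every value below is that of a single array.

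XCL1, or lymphotactin, is a chemokine released by activated T and NK cells that attracts type 1 conventional dendritic cells, which carry its receptor XCR1. IL2RB is the beta chain shared by the receptors for the cytokines IL-2 and IL-15 and is abundant on NK cells. CD3 epsilon and CD3 gamma are signalling chains of the T cell receptor complex, and CD5 is a surface receptor that dampens antigen receptor signalling in T cells and some B cells. Granzyme B and perforin are stored in the granules of cytotoxic lymphocytes, and NKG7 is a membrane protein of those granules. ETS1 is a transcription factor of lymphocytes that binds DNA around the bases GGAA.

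Promoter windows from RefSeq (build GRCm38.p6, the C57BL/6J reference, while the cells were BALB/c) matched 7 of the 9 genes by symbol. Il2rb and Ets1 had no window. Each window runs from 250 bases before the annotated start to 50 bases after it, written 5′ to 3′ on the gene's strand. Those of Xcl1 and Cd5 are shown because both genes were lower in each treated array together with Ets1, and that of Gzmb because it lay above background and was equal to control under Astragaloside IV. Under Oxymatrine Gzmb differed from control by -0.26. The windows shown were thus picked by outcome. Capitals mark GGAA on either strand (TTCC on the printed strand), the core that ETS factors bind.
Xcl1, chr1:164935473-164935772, minus strand: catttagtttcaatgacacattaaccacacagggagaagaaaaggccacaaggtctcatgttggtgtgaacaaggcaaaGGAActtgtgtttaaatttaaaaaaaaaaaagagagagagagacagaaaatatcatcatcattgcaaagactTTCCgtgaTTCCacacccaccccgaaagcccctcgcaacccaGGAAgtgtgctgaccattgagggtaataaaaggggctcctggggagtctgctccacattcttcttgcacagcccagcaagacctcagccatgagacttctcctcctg
Cd5, chr19:10738925-10739224, minus strand: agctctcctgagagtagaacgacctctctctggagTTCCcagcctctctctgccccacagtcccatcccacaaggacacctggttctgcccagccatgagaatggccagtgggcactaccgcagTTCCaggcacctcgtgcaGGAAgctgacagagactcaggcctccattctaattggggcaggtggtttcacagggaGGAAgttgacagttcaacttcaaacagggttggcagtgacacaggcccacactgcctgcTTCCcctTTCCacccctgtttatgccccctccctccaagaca
Gzmb, chr14:56262285-56262584, minus strand: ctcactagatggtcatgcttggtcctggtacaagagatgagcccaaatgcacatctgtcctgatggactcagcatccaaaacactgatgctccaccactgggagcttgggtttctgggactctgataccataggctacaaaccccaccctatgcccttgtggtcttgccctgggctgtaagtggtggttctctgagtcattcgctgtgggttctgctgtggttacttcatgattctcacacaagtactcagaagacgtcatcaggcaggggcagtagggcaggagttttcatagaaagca
The Xcl1 window held 4 matches to GGAA and the Cd5 window 6, while the Gzmb window held 0. The windows of the genes below background in every array held matches too: 5 in Cd3e, 5 in Prf1, 4 in Nkg7 and 2 in Cd3g. At such levels these genes cannot serve as examples of genes that stayed unchanged. Among all 32851 windows of 300 bases, 96.0% held GGAA on at least 1 strand, with a median of 3 matches. The longer GGAAGT, which overlaps GGAA, occurred at base -57 from the start of Xcl1 and at base -51 from that of Cd5. It was present in 23.8% of all windows, and also in those of Cd3e, with 1 match, and Prf1, with 2, both genes that were below background here. The windows of Cd3g and Nkg7 held 0 matches to GGAAGT. These motifs were chosen after the sequences had been seen, and a match says only that the letters are present.

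A background level was taken from 1410 olfactory and vomeronasal receptor genes, which blood cells normally leave silent. The 95th percentile of their mean levels was 5.28 on the log2 scale of the deposited values, and 10671 genes reached it in their mean over the 3 arrays. Of the 9 genes, Xcl1, Il2rb, Cd5, Gzmb and Ets1 did so, and Cd3e, Cd3g, Nkg7 and Prf1 did not. The label lymphoid says where the 9 genes are known from, and a level above background does not show that lymphoid cells gave it. Cd3e, Cd3g, Prf1 and Nkg7 lay at the level of silent genes in every array. At the 99th percentile of the receptor genes, a level of 5.88, only Il2rb, Cd5 and Gzmb passed. The means of Xcl1 at 5.75 and of Ets1 at 5.79 lay between the 2 limits.

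**Figure D1:**
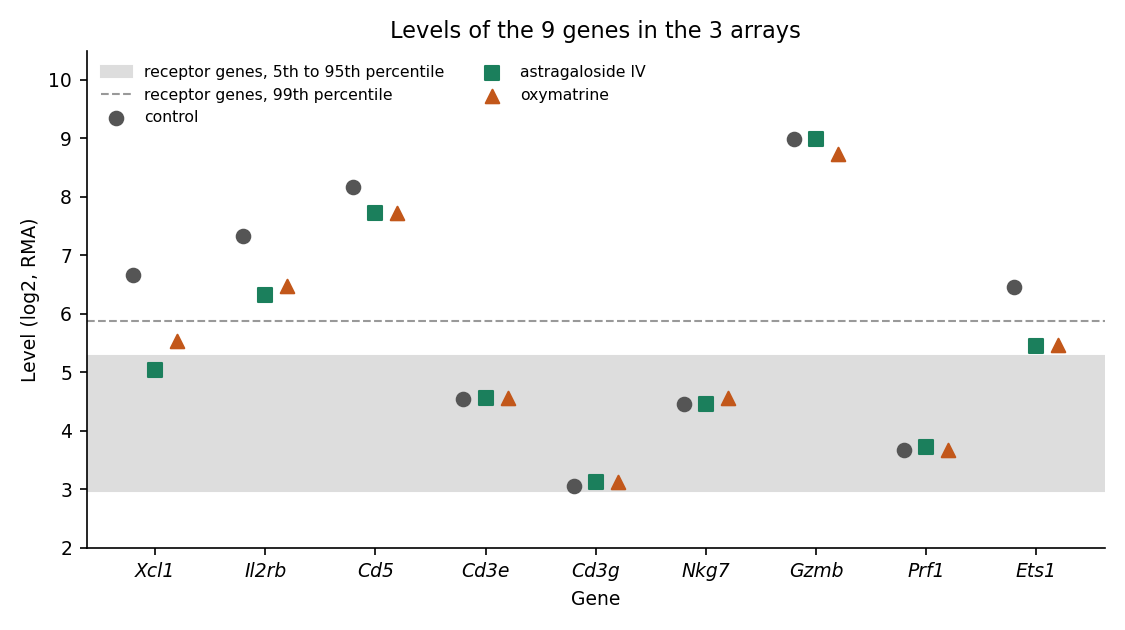
Log2 level of each of the 9 genes in the control, astragaloside IV and oxymatrine arrays, 1 point per array, with the 5th to 95th percentile of receptor genes in grey and their 99th percentile dashed. Control is the highest point for Xcl1, Il2rb, Cd5 and Ets1, while Cd3e, Cd3g, Nkg7 and Prf1 lie in the grey band in all 3 arrays.

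Xcl1 had a log2 level of 6.66 in control cells, 5.03 under Astragaloside IV and 5.54 under Oxymatrine. The control array was the high one, the oxymatrine array lay just above the background level and the astragaloside IV array below it. In control, 99.7% of receptor genes were dimmer than Xcl1, against 89.6% under Astragaloside IV and 96.7% under Oxymatrine. The difference from control was -1.63 under Astragaloside IV as deposited. Because the treated value lies under the background level, it gives only a bound, and the bound depends on the level chosen. With background at 5.28, the distance from control to background was 2.61-fold. At the 99th percentile of 5.88 it would be smaller, and the oxymatrine value would lie below that level too. The brightest receptor gene, at 7.45 in the control array, was brighter than Xcl1 there. Xcl1 counts as above background through its mean, and only 4 of the 9 genes, without Xcl1, reached that level in every array. With Oxymatrine the difference was -1.12, or 2.17-fold lower, in place 10 from the lowest. The treated arrays differed by -0.51 as deposited, Astragaloside IV being the lower. That difference lies at the background level too, with the oxymatrine value only 0.27 above it.

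A yardstick for such values is the SD of the same difference over the 500 genes nearest in mean level, a description of the scatter at that brightness and no replicate error. Around Xcl1 this SD was 0.26 for Astragaloside IV minus control and 0.30 for Oxymatrine minus control. Of those 500 genes 0 lay as far from control as Xcl1 under Astragaloside IV, and 3 did under Oxymatrine. Between the treated arrays the SD was 0.28, and 40 of the 500 genes differed by as much as Xcl1.

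The receptor gene and the chemokines that lymphocytes release together with XCL1 lay closer to control than Xcl1 did. Xcr1, the XCL1 receptor gene and a marker of type 1 conventional dendritic cells, was below background at 3.50 in control, 3.65 under Astragaloside IV and 3.50 under Oxymatrine. Ccl5, which encodes RANTES, was at 18.60 in all 3 arrays. Ccl3, the gene of a macrophage inflammatory protein, was at 16.55, 16.62 and 16.64 in control, Astragaloside IV and Oxymatrine. Ccl4, its close relative, was at 11.67, 11.52 and 11.75 in the same order. Each of the 3 chemokines stayed within 0.15 of control on the log2 scale. Ccl5 and Ccl3 lay high on a scale whose highest deposited value was 19.7, and whether signal was saturated there was not tested.

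Il2rb lay well above background in every array, at 7.33 in control, 6.32 under Astragaloside IV and 6.48 under Oxymatrine. Both treated values were lower than control, by differences of -1.01 and -0.84, which are 2.01-fold and 1.80-fold. Around Il2rb the SD over 500 genes of like level was 0.26 and 0.28, and 2 and 6 of these genes lay as far from control. Il2rb too was picked with its differences from control known, so the smallness of these counts carries no weight. The treated arrays differed by -0.17 in Il2rb, and 184 of the 500 genes lay at least that far apart.

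Other parts of IL-2 and IL-15 signalling were mostly close to control. Il2ra, the alpha chain of the IL-2 receptor, was at 10.43 in control, 10.22 under Astragaloside IV and 10.10 under Oxymatrine. Il15ra, the alpha chain of the IL-15 receptor, was at 10.79, 10.83 and 10.83. The exception was Socs3, which encodes a feedback inhibitor of cytokine signalling, at 8.28, 7.99 and 7.21. Its difference from control was -0.29 under Astragaloside IV and -1.06 under Oxymatrine. Stat5a, a transcription factor activated by these receptors, differed from control by 0.18 and 0, and Stat3 by -0.02 and -0.12. Of 10 listed genes of this group above background, 6 were lower, 3 higher and 1 equal under Astragaloside IV, against 7 lower, 2 higher and 1 equal under Oxymatrine. The medians were -0.02 and -0.05, and Socs3 was the only 1 of the 10 at 2-fold. For comparison, of all 10671 genes 40.8% were lower, 31.4% higher and 27.7% equal under Astragaloside IV, against 46.0% lower, 29.7% higher and 24.4% equal under Oxymatrine, with medians of 0. Such counts depend on scaling: of the 60 genes above background in the 6 related lists, 29 were lower than control under each compound as deposited, and 53 after arrays were centred on their medians, which shifts all genes by -0.06.

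Cd5 was at 8.17 in control and at 7.73 in each treated array. The difference of -0.45, or 1.36-fold, was the same in both, to the last deposited digit. RMA summarises probes by median polish, which over 3 arrays often gives equal values, and the treated arrays were exactly equal for 26.7% of the 10671 genes. Of the 9 genes, Cd5, Cd3e and Cd3g had equal treated values. The SD over 500 genes near Cd5 was 0.25 in each comparison with control, and 41 of them under Astragaloside IV and 53 under Oxymatrine lay as far from control, so this difference is of a size that many genes of its level had.

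Cd3e was at 4.55 in control and 4.56 in both treated arrays, and Cd3g at 3.06 and 3.12. In control, 76.3% of receptor genes were dimmer than Cd3e and 7.80% were dimmer than Cd3g, so neither transcript stood apart from silent genes. Cd3d, which lies between both on the chromosome and encodes CD3 delta, was at 3.89, 3.84 and 3.84. Of 25 listed genes of the T cell receptor and T cell programme, Cd3e, Cd3g and Cd5 not counted, 20 were measured and 9 were above background. With Astragaloside IV 3 of the 9 were lower, 1 higher and 5 equal, and under Oxymatrine 3 were lower, 3 higher and 3 equal, with a median of 0 in both. Cd8a, a coreceptor chain that some dendritic cells also carry, differed by -0.32 with each compound, Cd8b1, its partner chain, by 0 and -0.52, and Cd4 by 0.24 and 0.23. The kinase gene Fyn differed by -0.22 and 0.02. None of these 9 list genes reached 1.5-fold from control, as 2.13% of the 10671 genes did under Astragaloside IV and 3.31% under Oxymatrine.

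Gzmb was the cytotoxic gene that lay above background, at 8.99 in control, 8.99 under Astragaloside IV and 8.73 under Oxymatrine. The oxymatrine array was lower by a difference of -0.26, and 113 of 500 genes of like level lay at least as far from control. Prf1 was at 3.67, 3.72 and 3.67, and Nkg7 at 4.46, 4.46 and 4.56. In control 33.5% of receptor genes were dimmer than Prf1 and 72.3% were dimmer than Nkg7. So granzyme B transcript stood above silent genes and transcript of its usual partner perforin did not.

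Among 13 other listed genes of cytotoxic granules above background, 7 were lower, 2 higher and 4 equal under Astragaloside IV, against 6 lower, 3 higher and 4 equal under Oxymatrine. Their medians were -0.01 and 0. Unc13d, needed for granule release, differed by -0.31 in both, Gzmc, another granzyme gene, by -0.15 in both, and Ifng, the interferon gamma gene, by -0.19 in both. Ctsc, whose protease activates granzymes, differed by -0.17 and -0.19. Of 8 genes of NK cell receptors and regulators above background, 4 were lower, 1 higher and 3 equal under Astragaloside IV, against 2 lower, 2 higher and 4 equal under Oxymatrine. Among them Hcst, an adaptor of activating receptors, differed by -0.12 in both, and Klrk1, which encodes the NKG2D receptor, by 0 and 0.07. The adaptor gene Tyrobp differed by -0.08 and 0, and the IL-12 receptor gene Il12rb2 by -0.11 and 0. No gene above background in either list reached 1.5-fold in a comparison with control. Below background, Eomes and Klrb1c of the NK cell list were past 1.5-fold under Oxymatrine, higher by 0.74 and 0.64.

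**Figure D2:**
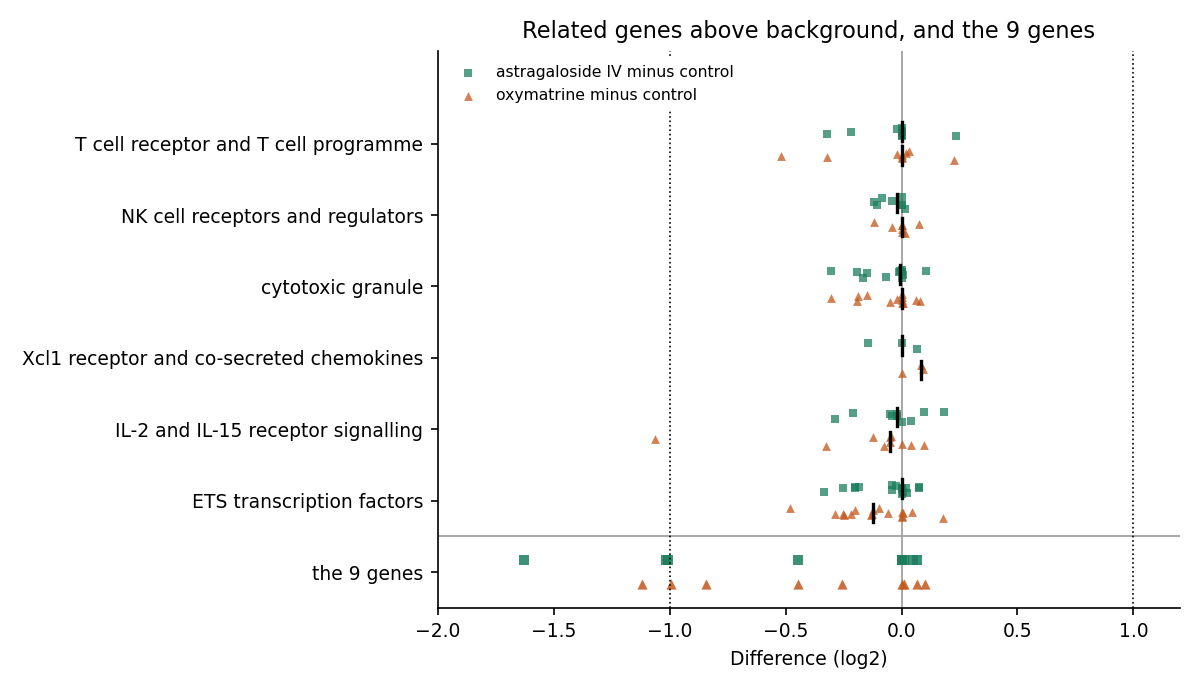
Difference from control on the log2 scale for the genes above background in 6 lists of related genes, squares for astragaloside IV and triangles for oxymatrine, with black bars at the list medians and the 9 genes in the bottom row. Socs3 with oxymatrine, at -1.06, is the only listed gene past the dotted 2-fold line, while Xcl1, Il2rb and Ets1 stand near or below that line.

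Ets1 was at 6.46 in control, 5.45 under Astragaloside IV and 5.47 under Oxymatrine. Both treated arrays lay within 0.19 of the background level, and control was 1.18 above it. Its differences of -1.02 and -0.99 from control correspond to 2.02-fold and 1.99-fold lower values. Of 500 genes of like level, 2 lay as far from control under Astragaloside IV and 5 under Oxymatrine, beside SDs of 0.26 and 0.30. These small counts carry no weight either, since Ets1 was picked with its differences from control known. The treated arrays differed by -0.02.

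Other ETS family genes lay closer to control, with none at 1.5-fold. Of 17 above background, 8 were lower, 5 higher and 4 equal under Astragaloside IV, with a median of 0, and 11 were lower, 3 higher and 3 equal under Oxymatrine, with a median of -0.12. Ets2, the closest relative of Ets1, was at 9.19 in control, 8.85 under Astragaloside IV and 8.90 under Oxymatrine. Spib, an ETS factor of plasmacytoid dendritic cells, was at 8.03, 8.03 and 7.55. Elk1 differed by -0.25 in both and Etv5 by -0.20 and -0.25. Spi1, which encodes the myeloid factor PU.1, was at 18.61, 18.64 and 18.65.

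Counted over all 9 genes, 4 were lower than control under Astragaloside IV, 3 higher and 2 equal, and 5 were lower under Oxymatrine, 3 higher and 1 equal. All that were higher lay below background, and of these Cd3e in both comparisons and Prf1 under Astragaloside IV fell to the lower side once arrays were centred. At 2-fold or more, Xcl1, Il2rb and Ets1 were lower under Astragaloside IV, where 0.159% of the 10671 genes were and 0.197% were 2-fold apart in either direction, and Xcl1 alone was lower under Oxymatrine, where 0.15% were and 0.281% were apart in either direction. At 1.5-fold or more, Xcl1, Il2rb and Ets1 were lower in both, beside 1.28% of genes under Astragaloside IV and 2.01% under Oxymatrine. Nothing can be read from these shares, since the differences were known when the genes were picked. Both comparisons use the same control array, so an unusual value in that array enters both differences alike.

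**Figure D3:**
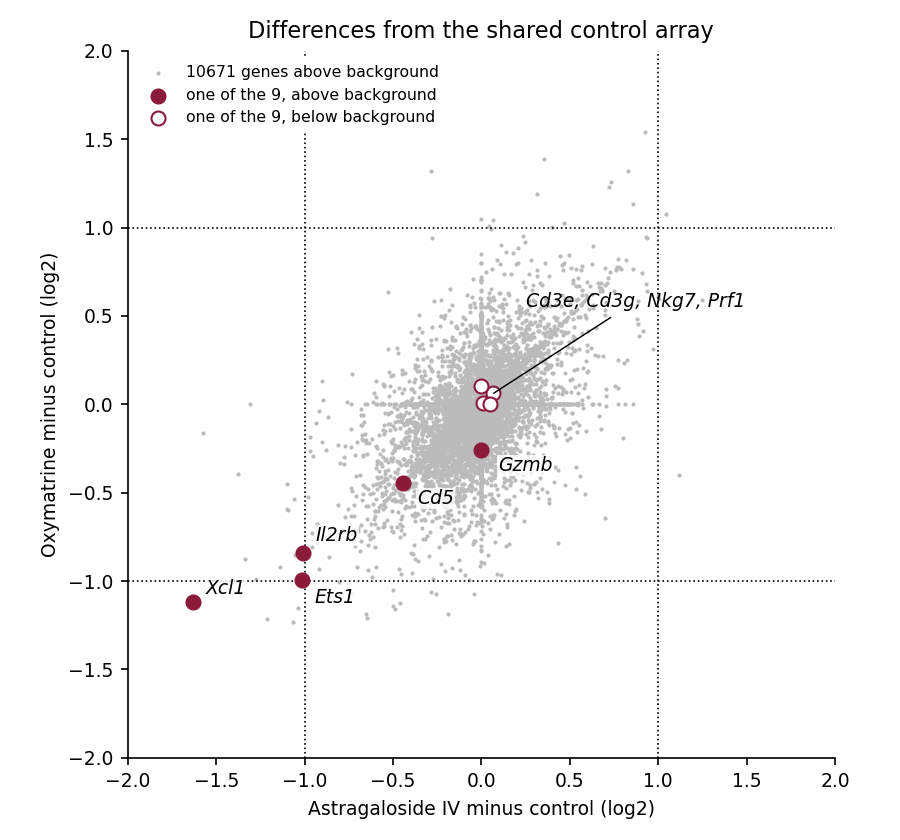
Difference from control with astragaloside IV (horizontal) and with oxymatrine (vertical), both log2 and both against the same control array, for the 10671 genes above background in grey and the 9 genes in red. Xcl1 lies at -1.63 and -1.12, Ets1 and Il2rb lie near -1 on both axes, and the open circles of the 4 genes below background lie near 0. A gene high or low in the control array alone falls on the diagonal.

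Between the compounds the 9 genes lay less than 1.5-fold apart. Astragaloside IV minus Oxymatrine ranged from -0.51 for Xcl1, which was under background with Astragaloside IV, to 0.26 for Gzmb. Of the 9 differences 3 were 0. At 1.5-fold there were 0 of 9, beside 2.58% of the 10671 genes, and at 2-fold 0 of 9, beside 0.159%. Of the listed and marker genes above background, Socs3 with a difference of 0.78 and Irf4, a factor of type 2 conventional dendritic cells, with 0.59 were past 1.5-fold here, both higher under Astragaloside IV. The structures differ in class, a triterpenoid saponin and a quinolizidine alkaloid, but with 1 array each and unstated doses no interval of these differences could be given.

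**Figure D4:**
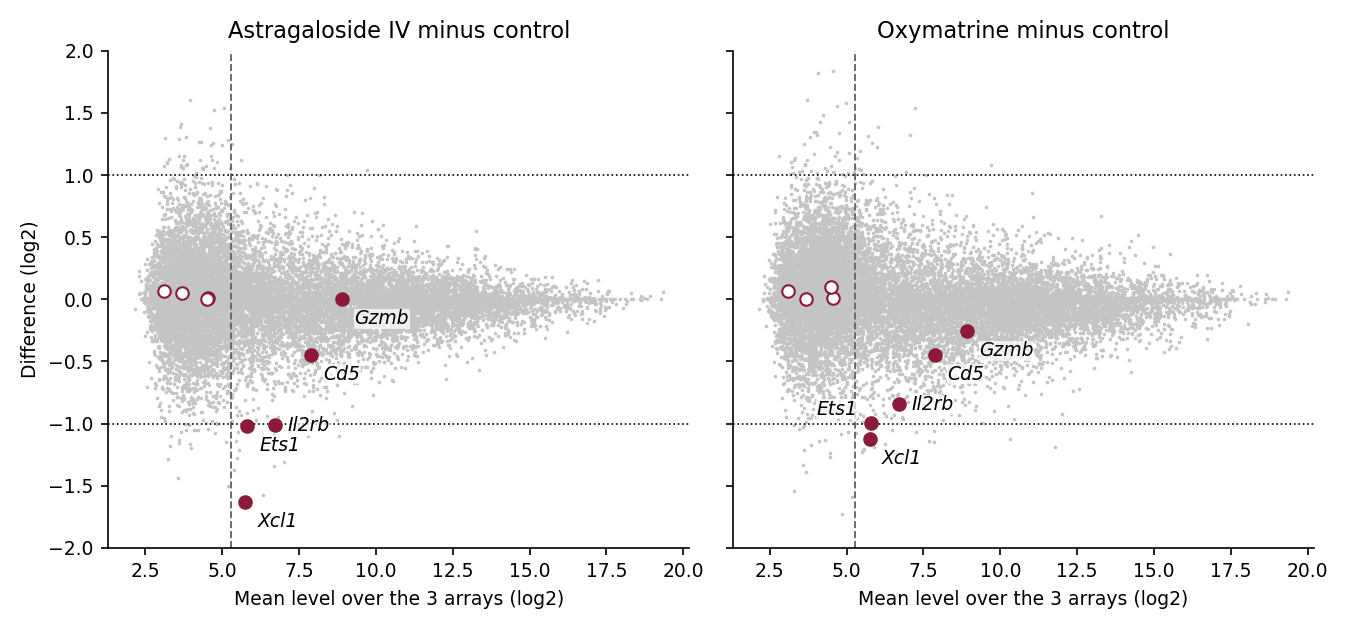
Difference from control (log2, vertical) against mean level over the 3 arrays (log2, horizontal) for all 19505 genes in grey and the 9 genes in red, with the background level dashed and 2-fold dotted. Xcl1 and Ets1 lie just to the right of the background level, at mean levels of 5.75 and 5.79, Il2rb lies at 6.71, and Cd5 and Gzmb lie further right and nearer 0.

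Genes whose pair of differences from control lay nearest to that of Xcl1 were sought by the Euclidean distance over those 2 differences, which come from 3 arrays. The search covered 10233 other genes above background, leaving out small RNAs, receptor genes and genes known only by a clone or prediction number. They were Qpct (distance 0.38), Tecpr2 (0.38), Abl1 (0.43), Gja1 (0.53) and Scd3 (0.58). Qpct was at 6.25 in control, 4.98 under Astragaloside IV and 5.26 under Oxymatrine, and Abl1 at 6.34, 5.13 and 5.13. Tecpr2, at 7.42, 6.08 and 6.54, was the only 1 of the 5 above background in all 3 arrays. For Il2rb the nearest were Adgrg3 (0.05), Cep128 (0.06), Tanc1 (0.10), Ticam2 (0.13) and Mrpl43 (0.13). Tanc1, at 6.06, 5.13 and 5.276, was above the background of 5.278 in control alone, the others in every array. Mrpl43, which encodes a mitochondrial ribosomal protein, was at 9.27, 8.35 and 8.33. Ticam2, an adaptor of toll-like receptor signalling, was at 8.44, 7.48 and 7.71. Since the control array is part of both differences, a gene high in control alone shows this pattern in both.

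The identity of the cells was checked against marker lists. Of 16 measured markers of plasmacytoid dendritic cells 14 were above background, and the log2 of their summed linear levels was 16.59 in control, 16.52 under Astragaloside IV and 16.51 under Oxymatrine. Siglech, a surface marker of these cells, was at 8.99, 8.99 and 9.02, and Tcf4, their lineage factor, at 14.37 in each. All 7 measured monocyte and macrophage markers also lay above background, with summed levels of 15.74, 15.72 and 15.73. Their median level in control was 12.86, against 9.10 for the plasmacytoid dendritic cell markers. For type 2 conventional dendritic cells 5 of 7 markers were above background, with summed levels of 15.84, 15.81 and 15.87. These lists therefore do not settle the make-up of the cultures. Of 14 T cell markers 5 were above background, with a summed level of 10.17, 9.97 and 10.00, and of 11 NK cell markers 4 were, with 10.40, 10.30 and 10.38. The defining T cell markers Cd3d, Cd3e, Cd3g and Trat1 and the defining NK cell markers Ncr1, Eomes, Tbx21 and Klrb1c were at or below 5.05 in every array, under the background level. Other markers of these lists were above it in every array, Klrk1 at 9.50 or more, Klrd1 at 7.99 or more, Cd28 at 8.12, Gzma at 6.03 and Cd2 at 5.98. Without the 9 genes, 19 T and NK cell markers were measured and 7 were above background. With Astragaloside IV 2 of these were lower and 5 equal to control, and under Oxymatrine 2 were lower, 2 higher and 3 equal, with a median of 0 in both. The T cell list holds Cd5 and the NK cell list Il2rb, so both sums include genes described here. Of 6 markers of type 1 conventional dendritic cells above background, 4 were lower, 1 higher and 1 equal under Astragaloside IV. Under Oxymatrine 5 were lower and 1 higher, and the medians were -0.15 and -0.28. Of all 10671 genes, 40.8% and 46.0% were lower. Itgae, which encodes the integrin CD103, was at 6.50, 5.77 and 6.01, with differences of -0.73 and -0.49. Tlr3 was the higher one, by 0.53 and 0.10, and Cd8a, among the lower ones, is also on the T cell list. The summed level of all 8 was 12.25, 12.27 and 12.04. Of 10 neutrophil markers 3 were above background, all lower under Astragaloside IV and 2 lower under Oxymatrine, with summed levels of 13.48, 12.99 and 13.24. The part of any of these cell types in the values of the 9 genes was not tested. In such bulk samples, fewer cells of a type and less RNA per cell cannot be told apart.

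**Figure D5:**
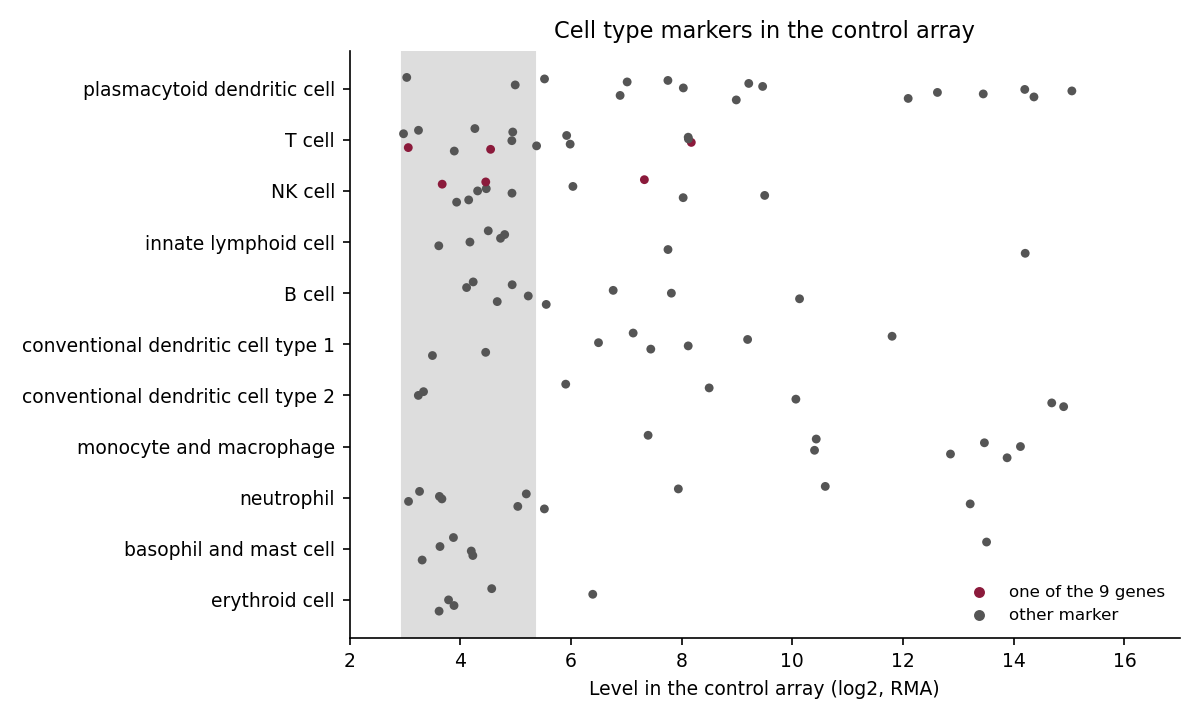
Log2 level in the control array of the marker genes of 11 cell types, 1 point per gene, with the 5th to 95th percentile of receptor genes in that array in grey and genes among the 9 in red. Most T and NK cell markers lie inside or near the grey band, and most plasmacytoid dendritic cell and monocyte markers lie to its right.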

How the data were processed

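RNA of 3 sorted cultures was labelled as biotinylated cRNA by a whole-transcript method, 1 array for each, per the labels' protocols. The deposited values are log2 expression values made by the authors with RMA (background correction, quantile scaling, median polish), per the submitters' processing notes; its software and version are not stated there. A range of 1.78 to 19.7 fits log2. The medians of 28846 probe sets were 5.68 to 5.75, and Pearson's r between arrays was 0.997 to 0.998 over genes.

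Probe sets were named through the platform annotation; each of the 9 genes had 1 probe set, and all 9 Entrez identifiers were in RefSeq. For other genes the probe set with the highest mean was used. Differences of deposited values were counted at 2-fold or 1.5-fold, with no test, since groups hold 1 array, whose number limits the precision. Equal means within 1e-09. Genes and lists were chosen with earlier results of these data known. Named beside the 9 were up to 4 genes above background per pathway list with the largest difference from control. List and marker genes above background and 1.5-fold apart, the 5 nearest in pattern to Xcl1 and Il2rb, and defining cell markers were named too. Of the genes below background and 1.5-fold apart, Eomes and Klrb1c were named and others were left out. Xcr1, Il15ra, Spi1, Tlr3 and 5 lymphocyte markers were added after their values were seen. The fold counts and the quantile step were tested on simulated 3-fold changes with less scatter than these arrays had. That checks the code only, and background calls were not part of it. Alternatives were other background levels, fold thresholds, centring, quantile normalisation, lowess (fraction 0.3) and averaged probe sets, in Python 3.11.15 (pandas 2.3.3, numpy 2.4.6, statsmodels 0.14.6).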

Additional observations from a re-analysis of the deposited data

How the results depend on the processing

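Each of the 27 differences of the 9 genes was recomputed after centring arrays on the median, quantile normalisation, lowess and averaging of probe sets. All 108 values moved by less than the SD of genes of like level. Averaging could move none of them, since each of the 9 genes had 1 probe set. Quantile scaling was already a step of RMA, and centring shifts all genes alike. Small moves were thus built into these settings and say little about the differences themselves. Xcl1 ranged from -1.69 to -1.63 under Astragaloside IV and from -1.18 to -1.12 under Oxymatrine. With Astragaloside IV 3 of the 9 genes were 2-fold from control and 1 was 3-fold as deposited. With Oxymatrine 1 was 2-fold, 3 were 1.5-fold and 0 were 3-fold; 2 were 2-fold after centring, 2 after quantile normalisation and 2 after lowess, Ets1 being added in each. At the 99th percentile of receptor genes 3 of the 9 were above background, without Xcl1 and Ets1. Of 60 genes above background in the 6 related lists, 29 were lower with each compound; centring, which shifts the median of all genes by -0.06, made this 53 with each compound, and without a level filter 44 of 97 were lower under Astragaloside IV. No paired analysis was possible because each group holds 1 array. No array could be left out for the same reason.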

Other observations

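Among lymphoid genes that the 9 do not include, Il7r, the receptor chain for IL-7 on lymphocytes and their precursors, was at 14.21 in control, 14.19 under Astragaloside IV and 14.19 under Oxymatrine, and was named after its values were seen. Of 7 measured markers of innate lymphoid cells it was above background with Rora, which was at 7.75, 7.71 and 7.43, while the other 5 were below. Of 9 B cell markers 4 were above background. Ebf1, a B lineage factor, was at 7.81 in control, 8.12 under Astragaloside IV and 8.14 under Oxymatrine, and Cd79b, a chain of the B cell receptor, at 10.13, 9.91 and 10.13. Pax5, the defining B lineage factor, was at 5.23 in each array, below background.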
